A study of Sus scrofa with 16 samples.

Results

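The genes described here encode the subunits of the proteasome, its activators and assembly factors, and the E2 ubiquitin-conjugating enzymes. They were taken as the probe sets whose single gene symbol begins with PSMA to PSMG and a digit, or with UBE2, with the brightest probe set standing for each gene. This gave 64 genes of the 6765 that carried a single symbol: 14 of the catalytic core, 15 of the regulatory cap, 4 of the immunoproteasome, 7 other activators, inhibitors and assembly chaperones, and 24 E2 enzymes. PSMB9, an immunoproteasome subunit, was not the symbol of any probe set in the annotation used and was not analysed here, nor were PSMC4, PSMD7 and UBE2L6.

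The samples were left ventricles of 16 Yorkshire x Landrace swine aged 2 to 3 months, hybridised 1 per porcine Affymetrix array. In the MI group 8 pigs had undergone an infarction and in the Sham group 8 had undergone the control operation, and all were sampled 3 weeks later. Each group comprised 4 females and 4 males, the males all neutered. No source used here says where the sampled myocardium lay relative to the infarct. The comparison asks which transcripts differ between infarcted and sham-operated hearts.

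The proteasome is the main protease of the cytosol and nucleus, and it degrades proteins that carry chains of ubiquitin. Ubiquitin is activated by an E1 enzyme, passed to an E2 enzyme and attached to the substrate, usually with the help of an E3 ligase that selects it. The core is a barrel of alpha and beta subunits, of which PSMB5, PSMB6 and PSMB7 cut peptide bonds, and the cap recognises, unfolds and feeds in the substrate. Interferon induces PSMB8, PSMB9 and PSMB10, which replace the constitutive catalytic subunits and favour peptides for antigen presentation. In heart muscle this system renews sarcomere proteins and removes damaged ones.

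Values are log2 signals as deposited, so a difference of 1 is a doubling of the signal. Arrays carry no read counts, and the number of animals limits the precision. Heart muscle markers were bright: 8 measured genes had mean signals from 11.47 (RYR2) to 14.62 (MYL2), and their average per animal lay between 13.79 and 13.92 in MI and between 13.82 and 13.97 in Sham. The arrays fell into 2 sets by their poly-A spike-in controls: relative to the hybridisation controls these lay between -2.45 and -1.40 in set A (11 arrays) and between -4.83 and -3.77 in set B (5 arrays). The smaller set consisted of Sham 6, Sham 7 and Sham 8 with MI 7 and MI 8. The actin control was brighter at its 3' than at its 5' end by 2.21 to 3.04 in set A and by 1.21 to 1.54 in set B. MI 7, labelled female, had a signal of 9.51 for EIF1AY, a chromosome Y gene, against 9.40 to 9.96 in the labelled males and 3.00 to 3.51 in the other labelled females. Differences between MI and Sham are therefore also given for some genes with the set as a term of the fit, within each set and without MI 7. The fit within set B left out sex, because that set held 0 MI males.

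For most of the genes the measured difference between the groups was small. In limma's moderated test over all probe sets, 2 of the 64 genes (3.12%) passed at an adjusted p under 0.05, both lower in MI, while 2527 of the 23999 probe sets (10.5%) passed, 5.14% lower and 5.39% higher, as did 516 of the 6765 genes with 1 symbol (7.63%). At an unadjusted p under 0.05 there were 3 of the 64 genes, against 23.6% of all probe sets and 18.1% of the genes with 1 symbol. The median MI minus Sham difference was 0.03 over the core genes, 0.0046 over the cap genes, 0.13 over the immunoproteasome genes and 0.0075 over the E2 genes, beside -0.00035 over all probe sets. All 64 genes had a group mean above the highest signal of control probe sets without target RNA (4.99). For 60 of the 64 genes the 95% confidence interval lay within a 1.5-fold change in either direction. The exceptions were PSMB3, UBE2C, UBE2W and UBE2QL1. That bound is wider than the difference of either gene that passed, so it does not exclude differences of their size. The share of all probe sets within the bound was not computed. In bulk tissue a lower share of a cell type and less RNA per cell cannot be told apart.

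**Figure D1:**
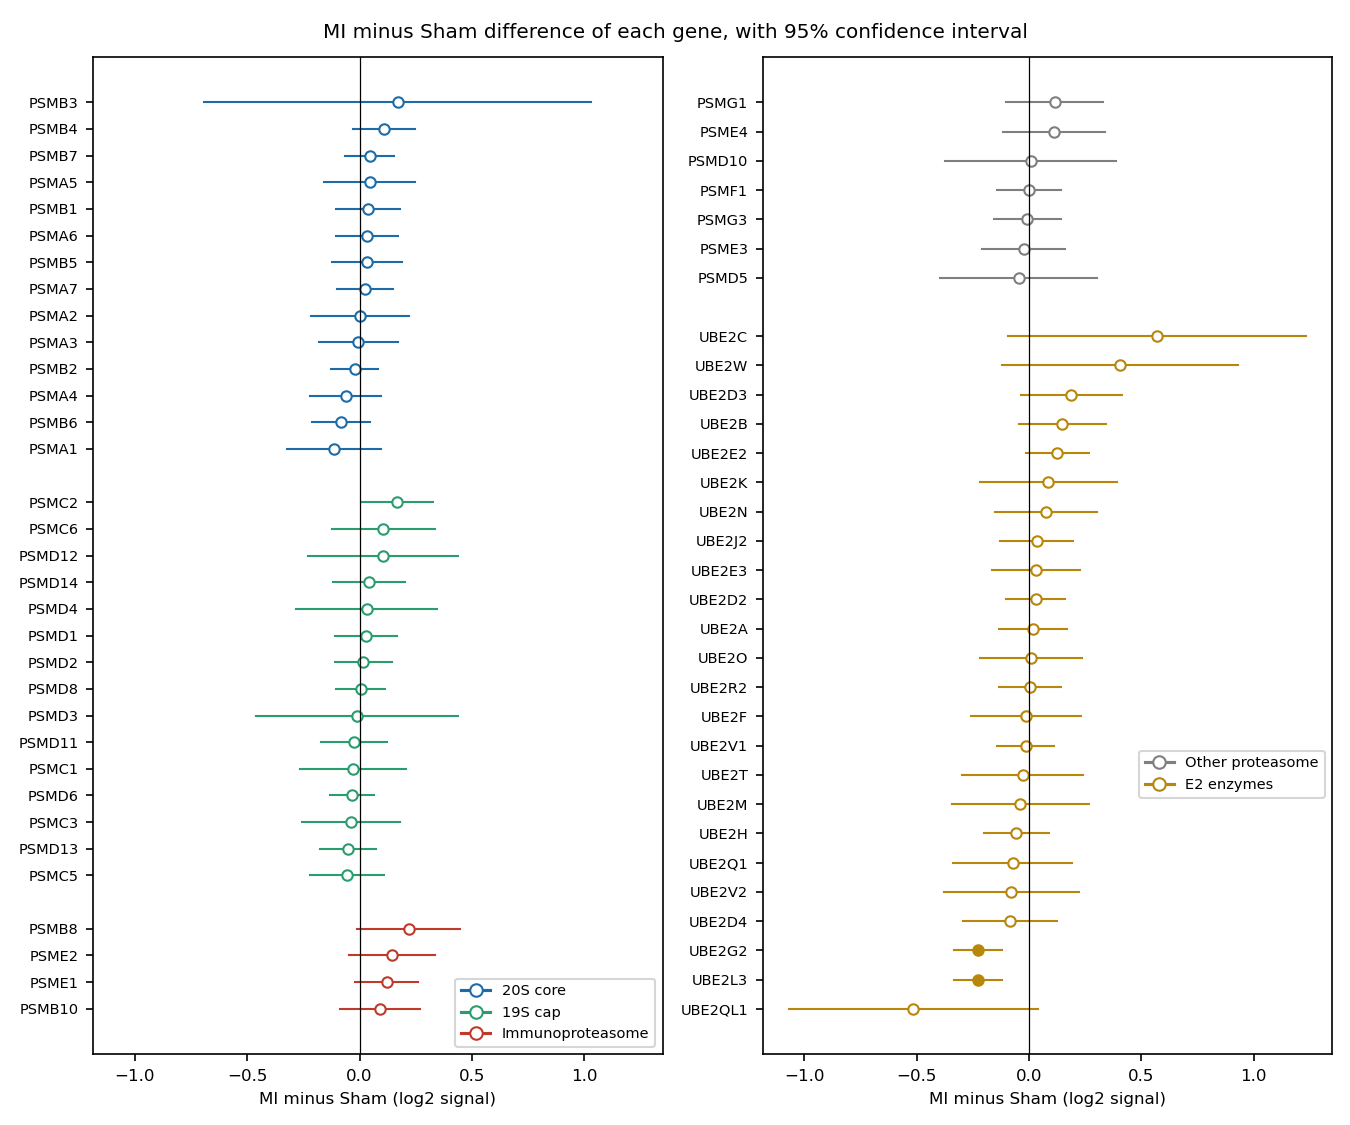
MI minus Sham difference of the log2 signal for each of the 64 genes (points) with its 95% confidence interval (lines), grouped by class; filled points passed at an adjusted p under 0.05. Only UBE2L3 and UBE2G2 are filled, near -0.23, and the widest intervals belong to PSMB3, UBE2C, UBE2W and UBE2QL1.

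The 2 genes that passed were E2 enzymes. UBE2L3 serves E3 ligases of the RING-between-RING type such as parkin, and UBE2G2 works with ligases of the endoplasmic reticulum in the disposal of misfolded proteins. The signal of UBE2L3 ran from 6.88 over a median of 7.01 to 7.06 in MI and from 7.14 over 7.22 to 7.34 in Sham animals. All 8 MI animals therefore lay below all 8 Sham animals. The group means were 7.0 ± 0.05 and 7.23 ± 0.07 (SD, n = 8 each), a difference of -0.23 (SE 0.05, limma adjusted p = 0.00789) or a 1.17-fold lower signal.

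UBE2G2 ran from 7.24 over 7.31 to 7.44 in MI and from 7.48 over 7.53 to 7.66 in Sham, again without overlap. Its means were 7.32 ± 0.06 and 7.55 ± 0.07 (n = 8 each), a difference of -0.23 (SE 0.05, limma adjusted p = 0.00909), which is 1.17-fold lower. Such separation of the groups occurred in 2.96% of all probe sets. Within the groups these genes varied little, with an SD of 0.06 for each, while the median over the 64 genes was 0.18. The test weighs a difference against that spread, so a low SD is favoured among the genes that pass. The 95% confidence interval of the difference was -0.33 to -0.12 for each gene.

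Because the groups did not overlap for either gene, the direction within each array set had to be the same. It is thus no separate evidence. In set A UBE2L3 lay between 6.98 and 7.06 in MI and between 7.14 and 7.26 in Sham, and in set B between 6.88 and 7.0 and between 7.15 and 7.34. UBE2G2 lay between 7.24 and 7.44 in MI and between 7.48 and 7.61 in Sham within set A, and between 7.31 and 7.34 and between 7.49 and 7.66 within set B. With the set as a term the differences were -0.23 and -0.22 (adjusted p = 0.00739 and 0.009). Without MI 7 and with the set as a term they were -0.23 and -0.22 (0.0149 and 0.0189). In set A alone, with 11 arrays, they were -0.18 and -0.21 and did not pass (0.083 and 0.0716), and in set B alone they were -0.33 and -0.25 (0.441 and 0.536). A second, separate probe set of UBE2L3 averaged 6.91 in MI and 7.15 in Sham, a difference of -0.25 (SE 0.10, adjusted p = 0.127). UBE2L3 (Entrez 100154268) lies on chromosome 14 from 50265102 to 50315409 and UBE2G2 (100624139) on chromosome 13 from 207444529 to 207471826, in the pig assembly Sscrofa11.1.

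**Figure D2:**
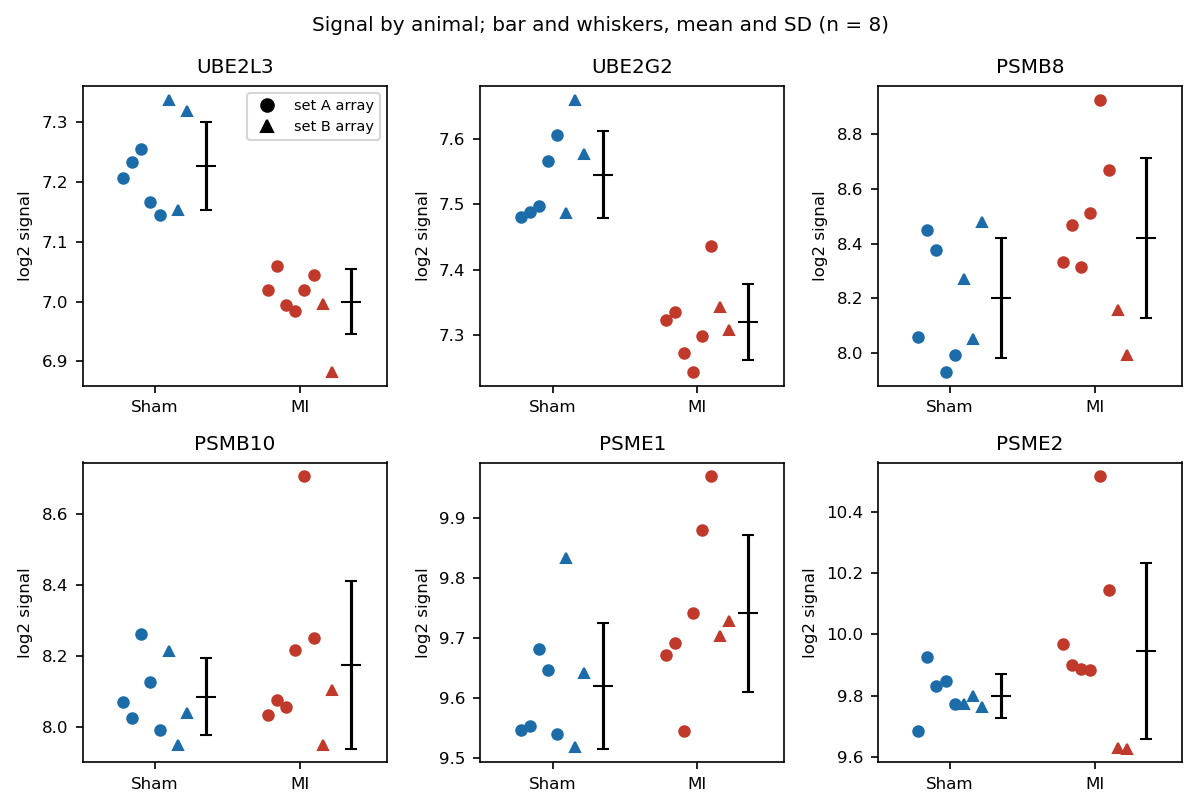
log2 signal of UBE2L3, UBE2G2 and the 4 immunoproteasome genes in each animal, Sham in blue and MI in red, circles for set A and triangles for set B arrays, with the mean and SD of each group (n = 8). The groups do not overlap for UBE2L3 and UBE2G2 and overlap for the other 4, where MI 5 is the highest point of PSMB8, PSMB10 and PSME2.

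The largest differences among the 64 genes belonged to other E2 enzymes whose animals varied widely, and none of these passed. UBE2C, the partner of the anaphase-promoting complex in mitosis, ran from 6.05 over 7.93 to 8.03 in MI and from 6.26 over 7.18 to 8.00 in Sham animals. MI 7 lay alone at the bottom of the MI group, the other 7 MI animals exceeded 7.6, and the Sham animals were spread over the whole range. The difference was 0.57 (SE 0.31, 95% confidence interval -0.10 to 1.23, adjusted p = 0.296), and without MI 7 it was 0.80 (adjusted p = 0.064).

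Of 8 measured genes of cell division 0 passed by limma, with 1 at an unadjusted p below 0.05, with a median difference of 0.23 and with 1 gene below background. Their mean signal ran from 5.53 to 6.64 in MI and from 5.63 to 6.54 in Sham animals. MI 7 was the lowest of the 16 animals in that mean and in 4 of the 8 genes. The part of dividing cells in the UBE2C values was not tested.

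UBE2W, which attaches ubiquitin to the amino terminus of substrates, ran from 6.44 over 7.57 to 7.77 in MI and from 5.85 over 7.14 to 7.52 in Sham. All 5 set B arrays lay below all 11 set A arrays for this gene. The difference was 0.40 (SE 0.25, adjusted p = 0.356), and it narrowed to 0.27 (SE 0.09, adjusted p = 0.0707) with the set as a term and to 0.32 (SE 0.09, adjusted p = 0.0579) in set A alone. Without Sham 7, the animal whose removal moved it most, it was 0.23 (adjusted p = 0.566).

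UBE2QL1, an enzyme related to the Q family of E2s, ran from 6.32 over 6.74 to 8.03 in MI and from 6.62 over 7.37 to 8.27 in Sham. MI 5 was the highest MI animal, and 7 of the 8 MI animals lay below the Sham mean. The difference was -0.52 (SE 0.26, adjusted p = 0.249), and without MI 5 it was -0.69 (adjusted p = 0.075).

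**Figure D3:**
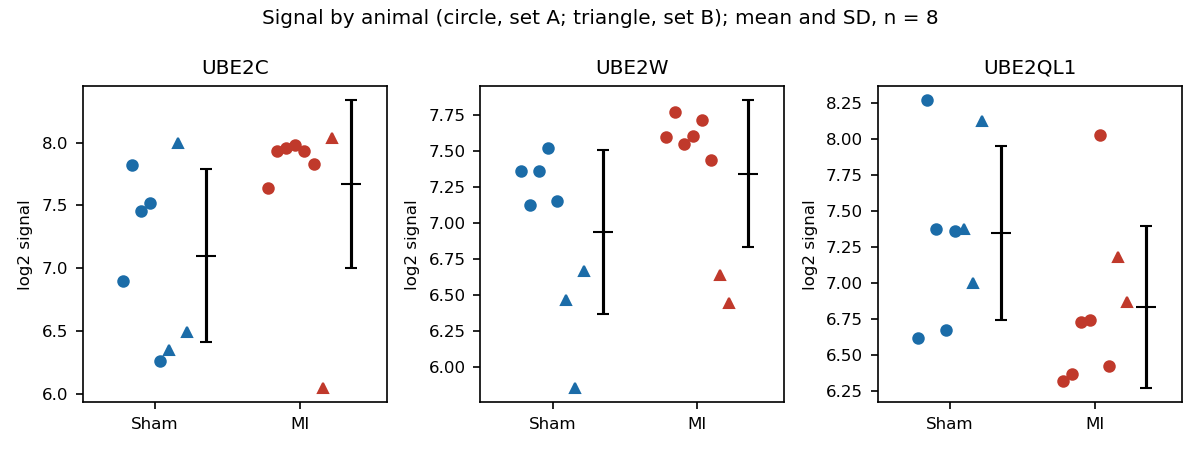
log2 signal of UBE2C, UBE2W and UBE2QL1 in each animal, Sham in blue and MI in red, circles for set A and triangles for set B, with the mean and SD (n = 8). The groups overlap for all 3 genes, MI 7 is the low MI point of UBE2C at 6.05, and the triangles of UBE2W lie below its circles.

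The remaining 19 E2 genes differed by -0.09 (UBE2D4) to 0.19 (UBE2D3), and 0 of them passed by limma and 0 had an unadjusted p below 0.05. UBE2D3, a versatile enzyme used by many E3 ligases, was 9.07 ± 0.25 in MI and 8.88 ± 0.20 in Sham (adjusted p = 0.31). UBE2B, a RAD6 homologue that ubiquitinates histones, was 11.26 ± 0.13 and 11.11 ± 0.20 (adjusted p = 0.36), and UBE2E2 was 8.13 ± 0.12 and 8.00 ± 0.12 (adjusted p = 0.274).

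UBE2V1 and UBE2V2 lack a catalytic cysteine and help UBE2N build chains that serve in signalling rather than degradation. They differed by -0.02 and -0.08 (adjusted p = 0.918 and 0.802), and UBE2N by 0.08 (adjusted p = 0.739). UBE2M and UBE2F conjugate the ubiquitin-like protein NEDD8, which activates cullin ligases. Their differences were -0.04 and -0.01 (adjusted p = 0.913 and 0.957).

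In the core 0 of the 14 genes passed by limma and 0 had an unadjusted p below 0.05. The alpha subunits form the outer rings that gate the entry of substrates. Their differences ran from -0.11 for PSMA1 (10.12 ± 0.27 in MI, 10.24 ± 0.18 in Sham, adjusted p = 0.551) to 0.04 for PSMA5. PSMA2 averaged 11.94 in both groups, with a 95% confidence interval of the difference from -0.22 to 0.22. PSMA3 (-0.0049, interval -0.18 to 0.17), PSMA4 (-0.06) and PSMA6 (0.03) were close to 0 as well.

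Among the beta subunits PSMB4, which holds no active site, had the smallest p. It ran from 10.96 over 11.19 to 11.30 in MI and from 10.77 over 11.12 to 11.17 in Sham, with a difference of 0.11 (SE 0.06, adjusted p = 0.336). The groups overlapped, although 7 of 8 MI animals lay above the Sham mean. The catalytic subunits PSMB5, PSMB6 and PSMB7 differed by 0.03, -0.08 and 0.05 (adjusted p = 0.85, 0.469 and 0.667), with SEs from 0.05 to 0.07.

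PSMB3, a structural beta subunit on chromosome 12 from 23347060 to 23357616, was the most variable of the 64 genes. It ran from 5.93 over 8.09 to 8.53 in MI and from 6.37 over 7.87 to 8.42 in Sham. The low values were those of set B: its 5 arrays lay between 5.93 and 6.68 and the 11 arrays of set A between 7.61 and 8.53. Its difference was 0.17 (SE 0.40, adjusted p = 0.856) over all animals and -0.06 (SE 0.12, adjusted p = 0.817) with the set as a term.

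The cap gave 0 passing genes of 15 by limma and 1 at an unadjusted p under 0.05. That gene was PSMC2, one of the ATPases that unfold the substrate. It ran from 10.28 over 10.50 to 10.71 in MI and from 9.96 over 10.38 to 10.53 in Sham, and the groups overlapped. The difference was 0.17 (SE 0.08, 95% confidence interval 0.0051 to 0.33, adjusted p = 0.195) over all animals and 0.10 (SE 0.06, adjusted p = 0.373) in set A. Of its other probe sets one differed by -0.12 and one by 0.20 (adjusted p = 0.487 and 0.472). The other measured ATPases lay between -0.06 (PSMC5) and 0.11 (PSMC6).

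The subunits without ATPase activity include ubiquitin receptors, scaffolds and the deubiquitinase PSMD14. Their differences ran from -0.05 (PSMD13) to 0.11 (PSMD12, adjusted p = 0.753), and PSMD14 differed by 0.04 (adjusted p = 0.812). PSMD6 was 10.27 ± 0.05 in MI and 10.31 ± 0.07 in Sham, with an interval of -0.13 to 0.06. PSMD3, a scaffold subunit on chromosome 12 from 22344751 to 22360550, was 8.84 ± 0.49 in MI and 8.85 ± 0.49 in Sham (adjusted p = 0.983). Its set B arrays (9.20 to 9.64) all exceeded its set A arrays (8.23 to 8.87), the opposite of PSMB3.

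All 4 measured immunoproteasome genes had a higher mean in MI, and 0 passed by limma and 0 had an unadjusted p below 0.05. PSMB8, which takes the place of PSMB5, ran from 7.99 over 8.40 to 8.93 in MI and from 7.93 over 8.17 to 8.48 in Sham. The difference was 0.22 (SE 0.11, 95% confidence interval -0.01 to 0.45, adjusted p = 0.235). The Sham mean was exceeded in 6 of 8 MI animals. PSMB10, which takes the place of PSMB7, ran from 7.95 over 8.09 to 8.71 in MI and from 7.95 over 8.06 to 8.26 in Sham, a difference of 0.09 (SE 0.08, adjusted p = 0.582). The groups overlapped for both.

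PSME1 and PSME2 form the ring-shaped activator that interferon induces, and they neighbour each other on chromosome 7 (75161830 to 75164531 and 75154570 to 75157871). PSME1 ran from 9.54 over 9.72 to 9.97 in MI and from 9.52 over 9.60 to 9.83 in Sham, and 7 of 8 MI animals lay above the Sham mean. PSME2 ran from 9.63 over 9.89 to 10.52 in MI and from 9.68 over 9.79 to 9.92 in Sham, so that MI animals lay on both sides of the Sham range. The differences were 0.12 (SE 0.07, adjusted p = 0.293) and 0.15 (SE 0.09, adjusted p = 0.367).

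The highest values came from 1 animal. MI 5 was the highest of all 16 animals for PSMB8 (8.93), PSMB10 (8.71) and PSME2 (10.52) and next to MI 6 for PSME1 (9.88). Without MI 5 the differences were 0.17 for PSMB8, 0.02 for PSMB10, 0.10 for PSME1 and 0.08 for PSME2 (adjusted p = 0.397, 0.89, 0.427 and 0.611). Within the sets the differences had opposite signs for PSMB8, PSMB10 and PSME2, and the contrast between the sets was not tested. The fits were also unlike: sex was left out in set B, which held 0 MI males, so group and labelled sex are partly mixed there. In set A the difference was 0.34 for PSMB8, 0.09 for PSMB10 and 0.20 for PSME2 (adjusted p = 0.151, 0.67 and 0.315), and in set B it was -0.19, -0.04 and -0.15 (adjusted p = 0.721, 0.947 and 0.698).

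Of 7 measured genes of interferon signalling and antigen presentation 0 passed by limma and 0 had an unadjusted p below 0.05. Their median difference was -0.09, 1 of them lay below background, and their mean ran from 8.46 to 9.40 in MI and from 8.65 to 9.81 in Sham. MI 5 had the second highest mean of the 16 animals, after Sham 8. It was the highest animal for only 1 of the 7 genes, TAP1. TAP1, the peptide transporter whose gene neighbours PSMB8 on chromosome 7 (25062772 to 25071989 against 25058456 to 25061666), was 9.55 in MI 5 and 9.33 in Sham 8, while its medians were 8.29 in MI and 8.25 in Sham. IRF1, a transcription factor induced by interferon, differed by -0.46 (adjusted p = 0.57), or by -0.08 without Sham 8 (adjusted p = 0.91), and IFNG, interferon gamma itself, by 0.08 (adjusted p = 0.634, below background).

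Among 10 measured leukocyte markers CD14, CD3D and CD8B rose (0.76, 0.43 and 0.30, adjusted p = 0.00314, 0.0116 and 0.0206) and CD4 fell by 0.24 (adjusted p = 0.0462), while the median difference of the 10 was -0.09. The partner chains CD3E and CD8A differed by -0.26 and -0.10 (adjusted p = 0.443 and 0.831). Of the 10, 2 lay below background, and their mean ran from 6.07 to 6.61 in MI and from 6.09 to 6.49 in Sham. Of 4 erythroid markers HBM and AHSP rose (1.11 and 0.83, adjusted p = 0.00843 and 0.0376), and of 6 fibroblast and endothelial markers 0 passed by limma and 0 had an unadjusted p below 0.05. The part of these cells in the immunoproteasome values was not tested.

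The 7 other proteasome genes gave 0 passing by limma and 0 with an unadjusted p below 0.05, with differences from -0.05 to 0.11. PSME4, an activator that binds the core without ubiquitin recognition, was 8.57 ± 0.12 in MI and 8.45 ± 0.27 in Sham (adjusted p = 0.589). Its difference of 0.11 became 0.21 without Sham 5 (adjusted p = 0.0691) and 0.06 without Sham 7 (adjusted p = 0.8). PSME3, the nuclear activator, differed by -0.02 and PSMF1, an inhibitor of the core, by 0.0016 (adjusted p = 0.914 and 0.993). Of the assembly chaperones PSMG1 differed by 0.11 (adjusted p = 0.561), PSMG3 by -0.0073, PSMD5 by -0.05 and PSMD10 by 0.0072 (adjusted p from 0.908 to 0.988).

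More of these genes differed between the array sets than between MI and Sham. In a fit with group, sex and set, 20 of the 64 genes (31.2%) were lower in set B and 6 (9.38%) were higher, against 8.2% and 9.45% of all probe sets. By class, 5 of 14 core genes, 5 of 15 cap genes, 4 of the 7 other proteasome genes and 6 of 24 E2 genes were lower, while 2 cap genes and 4 E2 genes were higher. The largest term was that of PSMB3 at -1.82 (SE 0.15, adjusted p = 4.97e-06). UBE2W (-1.08, SE 0.11), the chaperone PSMD10 (-0.76, SE 0.10) and PSMD12 (-0.61, SE 0.11) followed, and at the other end stood PSMD3 (0.89, SE 0.12) and UBE2Q1 (0.46, SE 0.09). For 10 of the 64 genes every set B array lay below every set A array, which was so for 2.72% of all probe sets, and for 3 every one lay above (3.64% of all probe sets).

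The mean over the 14 core genes lay between 10.71 and 10.84 in the MI animals of set A, between 10.65 and 10.82 in its Sham animals, between 10.36 and 10.42 in the MI animals of set B and between 10.43 and 10.65 in its Sham animals. The core means of the groups thus overlapped in set A. In set B, with 2 MI and 3 Sham animals, they did not overlap but came as close as 10.42 (MI 8) and 10.43 (Sham 7). So few animals can fall apart by chance, and set B held 0 MI males. For the 4 immunoproteasome genes the mean was 8.95 to 9.51 in MI and 8.82 to 9.04 in Sham animals of set A, and 8.86 in both MI animals and 8.83 to 9.02 in the Sham animals of set B. The part of labelling and of RNA quality in the set difference was not tested.

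**Figure D4:**
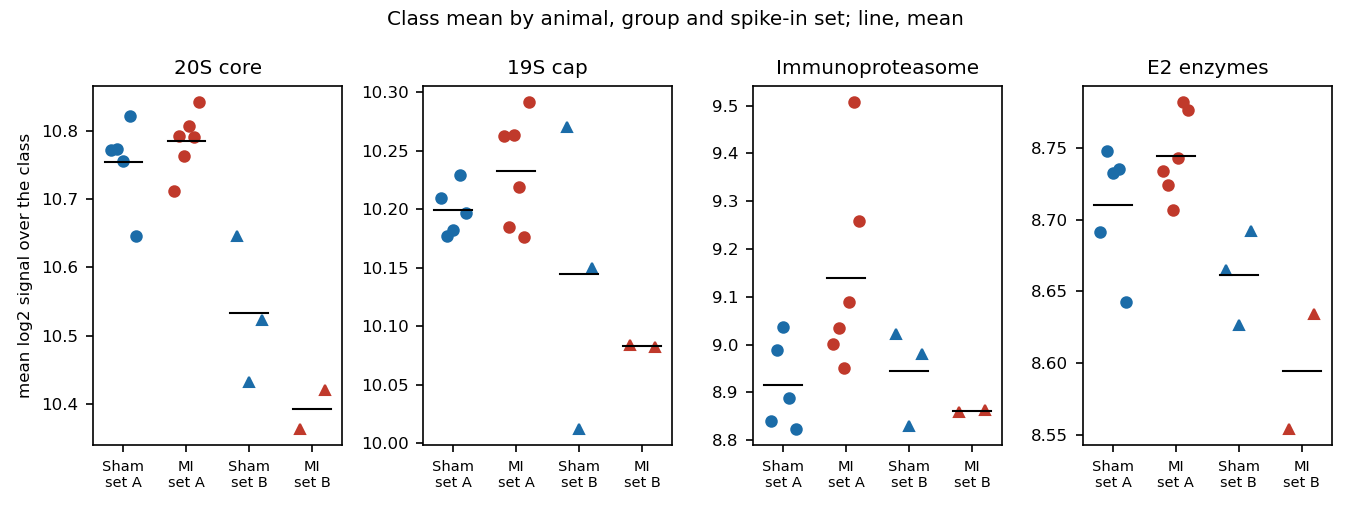
Mean log2 signal over the genes of each class in every animal, by group and array set (points), with the mean of each column (lines). The core mean is 10.65 to 10.84 in set A and 10.36 to 10.65 in set B, while the immunoproteasome mean reaches 9.51 in 1 MI animal of set A.

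**Figure D5:**
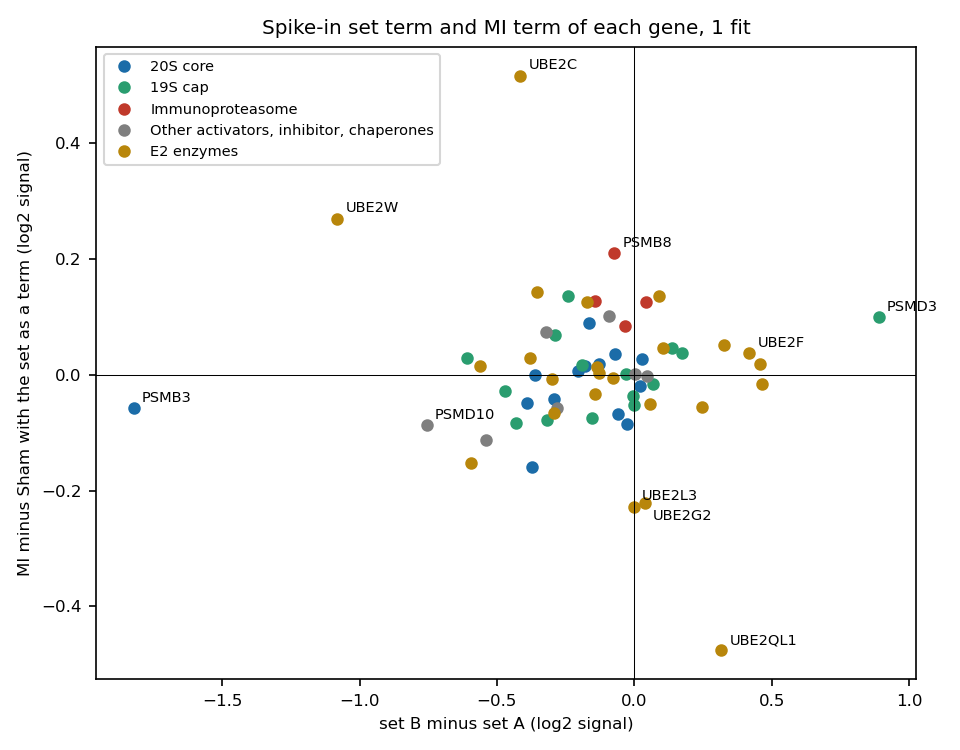
For each of the 64 genes, the set B minus set A term (horizontal, log2 signal) and the MI minus Sham difference (vertical, log2 signal) from a fit that holds both. The points spread from -1.82 (PSMB3) to 0.89 (PSMD3) along the set axis, and UBE2L3 and UBE2G2 lie near 0 on it and near -0.22 on the other.

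Within the labelled sexes 0 of the 64 genes passed in females, with 2 at an unadjusted p below 0.05 by limma, where 2.85% of all probe sets passed and 16.2% had such a p. In males 0 passed, with 5 at an unadjusted p below 0.05 by limma, where 3.4% of all probe sets passed and 19% had such a p. UBE2L3 differed by -0.20 in females and -0.25 in males, and UBE2G2 by -0.23 and -0.22. The difference between the sexes in the MI effect was tested directly and passed for 0 of the 64 genes and 0% of the probe sets. An interaction p below 0.05 before adjustment was found by limma for 1 of the 64 genes and for 5.68% of all probe sets. That gene was PSMG3, with 0.20 in females and -0.21 in males (limma adjusted p = 0.794). UBE2V1 (-0.25), PSMD3 (0.84) and UBE2M (0.57) had the next smallest interaction p, each with an adjusted p of 0.794. Set B held 2 MI females, 0 MI males, 1 Sham female and 2 Sham males, so array set and sex are partly mixed in these values. The values also keep MI 7 as a female, as labelled, although its EIF1AY signal (9.51) lay in the range of the labelled males. Its sex is therefore uncertain, and so are the female and interaction differences, which are not given without it. The passing counts in females, in males and for the interaction stayed at 0 whichever animal was left out.

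Between females and males over both groups 0 of the 64 genes passed and 0.0583% of all probe sets did. An unadjusted p below 0.05 was found by limma for 2 of the 64 genes and for 3.11% of all probe sets. These were PSMA5, at -0.24, and PSMB8, at -0.27, both lower in females and each with a limma adjusted p of 0.998. PSME2 (-0.19) and PSMC2 (-0.16) came next. These differences count MI 7, whose sex is uncertain, among the females and are not given without it. The passing count stayed at 0 whichever animal was left out.

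Among the measured genes of lists drawn from the rest of the ubiquitin system, 1 passed. The lists hold only part of that system, and its other genes were not examined. Of 7 genes of ubiquitin, its E1 enzymes and the E2 enzyme CDC34, 0 passed by limma and 0 had an unadjusted p below 0.05, the smallest p belonging to SAE1 (-0.11, adjusted p = 0.445), a subunit of the E1 for the ubiquitin-like SUMO, and CDC34 (-0.16, adjusted p = 0.483). Of 12 E3 ligase genes 1 passed: SKP2, which recruits cell cycle inhibitors for degradation. It was 3.85 ± 0.13 in MI and 3.58 ± 0.09 in Sham (n = 8 each), a difference of 0.27 (SE 0.06, limma adjusted p = 0.00717), but both means lay below background. The muscle atrophy ligase FBXO32 was 10.65 ± 0.99 in MI and 10.93 ± 0.40 in Sham (adjusted p = 0.633), and TRAF6, a ligase of inflammatory signalling, differed by -0.37 (adjusted p = 0.141).

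Of 11 deubiquitinases measured from the lists 0 passed by limma, with 1 at an unadjusted p below 0.05. USP2 was lowest in p, at 8.82 ± 0.60 in MI and 9.36 ± 0.37 in Sham (adjusted p = 0.139, and 0.0184 without MI 8), followed by USP9X (-0.14, adjusted p = 0.435). Of 6 shuttle, cap-associated and assembly factors 0 passed (1 at an unadjusted p under 0.05): TXNL1, a thioredoxin-like protein bound to the cap, was 10.64 ± 0.11 in MI and 10.42 ± 0.14 in Sham (adjusted p = 0.0581; it passed without MI 8, Sham 1 or Sham 8 at 0.0489, 0.0351 and 0.0305), and SEM1, a small cap subunit, differed by -0.06 (adjusted p = 0.676).

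The 64 genes had 86 probe sets, and 48 genes had a single one. Of the 22 probe sets not used above 0 passed by limma and 3 had an unadjusted p under 0.05, those of UBE2L3 (-0.25), UBE2O (0.28, adjusted p = 0.119) and PSMD1 (0.12, adjusted p = 0.153). The probe set used for UBE2O differed by 0.01 and that for PSMD1 by 0.03, so the probe sets of these genes gave unequal differences. The unused probe sets of UBE2C and UBE2W differed by 0.06 and -0.05 (limma adjusted p = 0.763 and 0.85). Their mean signals, 4.68 and 4.06, lay below background.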

How the data were processed

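The deposited values are log2 signals, 1 per probe set and array, as judged from their range (2.87 to 14.9). The median signal of the MI 1 array was 6.24. How the authors summarised and normalized them, and with which software, is not given in the sources used here. Left out were 124 control probe sets, which left 23999. Gene symbols came from the platform annotation, and positions from RefSeq (Sscrofa11.1) by Entrez identifier, found for 63 of the 64 genes. Differences were fitted in R 4.3.3 with limma 3.58.1, with 1 coefficient for each combination of group and sex (12 residual degrees of freedom), two-sided, and adjusted by Benjamini-Hochberg over 23999 probe sets. In the main fit the contrast is the mean of the female and male differences. In set B alone sex was left out of the fit. Array sets were split at the widest gap in the poly-A spike-in minus hybridisation signal. Each array was 1 animal, per the labels, so p-values measure the spread between animals. Genes were named by a rule: the immunoproteasome genes, those passing, the 3 with the lowest p of each subclass (alpha, beta, cap ATPase, other cap, immunoproteasome, other activators and inhibitors, assembly chaperones, ubiquitin E2, ubiquitin-like E2 and E2 variants; fewer where fewer were measured), the 3 largest differences, the 4 lowest p for interaction and for sex, the 3 highest and 3 lowest means, and the passing and 2 lowest-p genes of each pathway list. UBE2B, UBE2D3, UBE2D4, UBE2E2, UBE2N, UBE2O, UBE2Q1, PSMB3, PSMB5, PSMD1, PSMD10, PSMD14, FBXO32, TAP1 and the marker genes stand outside it and were chosen after their values were seen. The genes and lists were chosen with earlier results of these data known. The fit was tested on simulated data.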

Additional observations from a re-analysis of the deposited data

Results flagged for a closer look

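In 13 of 98 groups of 8 animals tested, 1 animal stood apart from the others of its group by more than Dixon's criterion allows. Chance gives about 1 in 20 where the groups are independent. These groups reuse the same animals and mix both array sets, so 13 of 98 cannot be read against that rate. Among the proteasome and E2 genes, MI 7 was low for UBE2C (6.05, next 7.64) and MI 8 for UBE2L3 (6.88, next 6.98). MI 5 was high for PSMB10 (8.71, next 8.25) and low for PSMD13 (9.69, next 9.87). Sham 7 was low for PSMA5 (9.22, next 9.67), for PSME3 (8.23, next 8.57) and for the mean of the cap genes (10.01, next 10.15), and Sham 5 was high for PSME4 (9.05, next 8.55). In the pathway lists, Sham 8 was high for IRF1 (11.22, next 9.03), Sham 7 for SAE1 (8.96, next 8.67), Sham 2 for SKP2 (3.77, next 3.61) and MI 8 for USP2 (10.09, next 9.10), while Sham 1 was low for SEM1 (11.60, next 11.84).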

How the results depend on the processing

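UBE2L3 and UBE2G2, and no other of the 64 genes, passed under each alternative run on all or all but 1 of the animals, and 0 passed in set A alone or in set B alone, which hold fewer animals. The animal number as a replicate block gave 2 passing genes, the same ones, and 2645 probe sets; deviations of same-numbered animals correlated by -0.07 to 0.46 (median 0.117), which was not taken as pairing, and in every number but 6 they also shared the array set. Of all probe sets 654 passed among the 16000 brightest, 993 among those above background, 382 with probe sets averaged per gene, 1123 at an adjusted p under 0.01 and 1 in set B. In females 2 of the 64 genes passed with an offset of 32; in males 2 did with that offset, 2 with array weights and 1 with probe sets averaged. The median difference over all probe sets was 0.0034 with probe sets averaged, 0.0025 in set B and -0.0021 to 0.0010 with 1 animal left out. In set B the median was -0.095 over the immunoproteasome genes and -0.076 over the E2 genes.

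Every reversal given here is of a gene that did not pass, and the cause was not tested. Quantile normalization turned PSMA2 (-0.00055). Array weights turned PSMA2 (-0.0066), PSMF1 (-0.0097) and UBE2V1 (0.0069). The set as a term turned PSMA2 (-0.048), PSMA5 (-0.00093), PSMD3 (0.099), UBE2F (0.037) and UBE2M (0.019). Set A alone turned IRF1 (0.010), PSMA2 (-0.034), PSMA4 (0.053), PSMD3 (0.087), PSME3 (0.0081), UBE2F (0.022) and UBE2V1 (0.0048). Set B alone turned PSMA2 (-0.10), PSMA5 (-0.11), PSMA6 (-0.17), PSMB10 (-0.040), PSMB7 (-0.038), PSMB8 (-0.19), PSMC5 (0.0083), PSMC6 (-0.035), PSMD12 (-0.18), PSMD3 (0.15), PSME2 (-0.15), PSMF1 (-0.088), PSMG3 (0.082), UBE2F (0.013) and UBE2M (0.25). The set term without MI 7 turned PSMA2 (-0.014), PSMD3 (0.11), PSMG3 (0.0049), UBE2F (0.0023) and UBE2M (0.041). Averaged probe sets turned PSMF1 (-0.045) and UBE2V1 (0.051). With 1 animal left out the difference ran from -0.052 to 0.059 for PSMA2, -0.11 to 0.11 for PSMD3, -0.024 to 0.039 for PSMF1, -0.076 to 0.053 for UBE2F, -0.13 to 0.031 for UBE2M, -0.031 to 0.032 for PSMG3, -0.049 to 0.023 for PSMA3, -0.071 to 0.016 for PSME3, -0.044 to 0.021 for UBE2V1, -0.16 to 0.031 for PSMD5 and -0.028 to 0.089 for PSMA5. Among the pathway genes TXNL1 passed in set A (adjusted p = 0.0272), without sex in the fit (0.043), with the offset (0.0432) and with array weights (0.0264), USP2 with array weights (0.0434), in set A (0.0478) and with the replicate block (0.0205), and SKP2 missed in set A (0.0502) and set B (0.681). Signals of SKP2, CD4 and IFNG lay below background, which limits their differences.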
